A study of Mus musculus with 6 samples.

Results

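The genes described here are 9 immediate early genes of the mouse: Egr1, Egr2 and Egr3, Ier2, Ier3 and Ier5, and Nr4a1, Nr4a2 and Nr4a3. They were chosen by symbol, with their sh Spp1 over sh Ctrl ratios on these arrays known, so those ratios are given below as a description with no test. Each symbol had 1 probe set, and all 9 passed the filter on dim probe sets, which left 16797 genes. RNA came from cultured mouse tumour cells of 3 lines: LLC (Lewis lung carcinoma), AE17 (malignant mesothelioma) and MC38 (colon adenocarcinoma). In each line 1 array was labelled sh Ctrl with the genotype wild type, and 1 was labelled sh Spp1 with the genotype Spp1 depletion, a short hairpin RNA against osteopontin. The labels do not say whether the sh Ctrl cells carried a control hairpin, nor how many clones or cultures each array stands for. Cultures were kept in serum-containing medium, and no further treatment was named.

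Immediate early genes are transcribed within minutes of a stimulus such as serum, a growth factor or stress, without the need for new protein, and their messages are short-lived. Egr genes encode zinc finger transcription factors that bind GC-rich DNA, and growth factor signalling induces them through serum response factor (SRF), which binds the CArG box together with ternary complex factors. Nr4a genes encode orphan nuclear receptors that are active without a known ligand, and their promoters respond to CREB, the factor activated by cyclic AMP. Ier genes are grouped by rapid induction and not by 1 protein fold: Ier2 and Ier5 encode related nuclear proteins, and Ier3 encodes a regulator of apoptosis.

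The table held 1 intensity per array for 41345 probe sets, and the number of arrays limits the precision. Array medians ran from 26.6 to 64.2, so levels are given as log2 intensity after quantile normalization, where the filter's floor lay at 4.49. Over probe sets, r between the sh Ctrl and sh Spp1 array was 0.979 for LLC, 0.982 for MC38 and 0.939 for AE17. The AE17 arrays were thus less alike than either was to the arrays of the other lines, at 0.942 to 0.954. AE17 also had the widest log2 ratios, with an SD over genes of 0.93 against 0.45 for LLC and 0.42 for MC38. Spp1 itself was not analysed here, which leaves each direction resting on the labels. Some defining markers of the labelled tissues were low and others were not. The surfactant gene Sftpc had 4.60 and 4.62 in LLC (sh Ctrl first, as below) where the airway factor Foxa2 had 7.03 and 6.99, the intestinal factor Cdx2 had 5.18 and 5.03 in MC38, and mesothelin (Msln) had 5.13 and 5.34 in AE17 but 9.87 and 9.96 in MC38. Of the other mesothelium markers, Pdpn had 6.99 and 9.75 in AE17 but also 9.70 and 9.63 in MC38. Gata4 had 7.15 and 8.16 in AE17 and 6.85 and 7.71 in LLC. In AE17 Gata6 had 4.77 and 7.53, and Bnc1 had 6.62 and 5.41. Lower there were Wt1, at 5.83 and 5.64, Upk3b, at 5.77 and 5.58, and Lrrn4, at 4.28 and 5.42. Calb2 lay under the floor on all 6 arrays. The leukocyte genes Ptprc and Adgre1 lay under the floor on all 6 arrays, but Cd68 had 6.51 to 8.71 over the 6. In AE17 the leukocyte gene Lyz2 had 7.50 and 5.12, and the endothelium gene Pecam1 had 6.76 and 5.25. The 8 leukocyte markers with a probe set summed to intensities of 238 to 510 on sh Ctrl and 295 to 590 on sh Spp1 arrays, and the part of other cells in the ratios was not tested.

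Egr1, Egr3, Ier2 and Ier5 were higher on the sh Spp1 array in each of the 3 lines, and this held under each of 4 scalings of the arrays. Nr4a1 and Nr4a3 were also higher in every line, with lower means, but their LLC ratios were negative in the values as deposited, where the median of all genes in LLC was -0.46. Nr4a2 was lower in every line, although in AE17 and MC38 its ratio was above 0 under some scalings. Egr2 had its highest ratio in LLC and -0.0034 in MC38, and Ier3 had ratios of both signs. The proposed label sets rises of Egr and Ier genes against the Nr4a genes, but Nr4a1 and Nr4a3 were higher in every line too, and Ier3 and Egr2 were not. Values of RNA from whole cultures cannot tell more transcript per cell from more cells with the transcript.

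**Figure D1:**
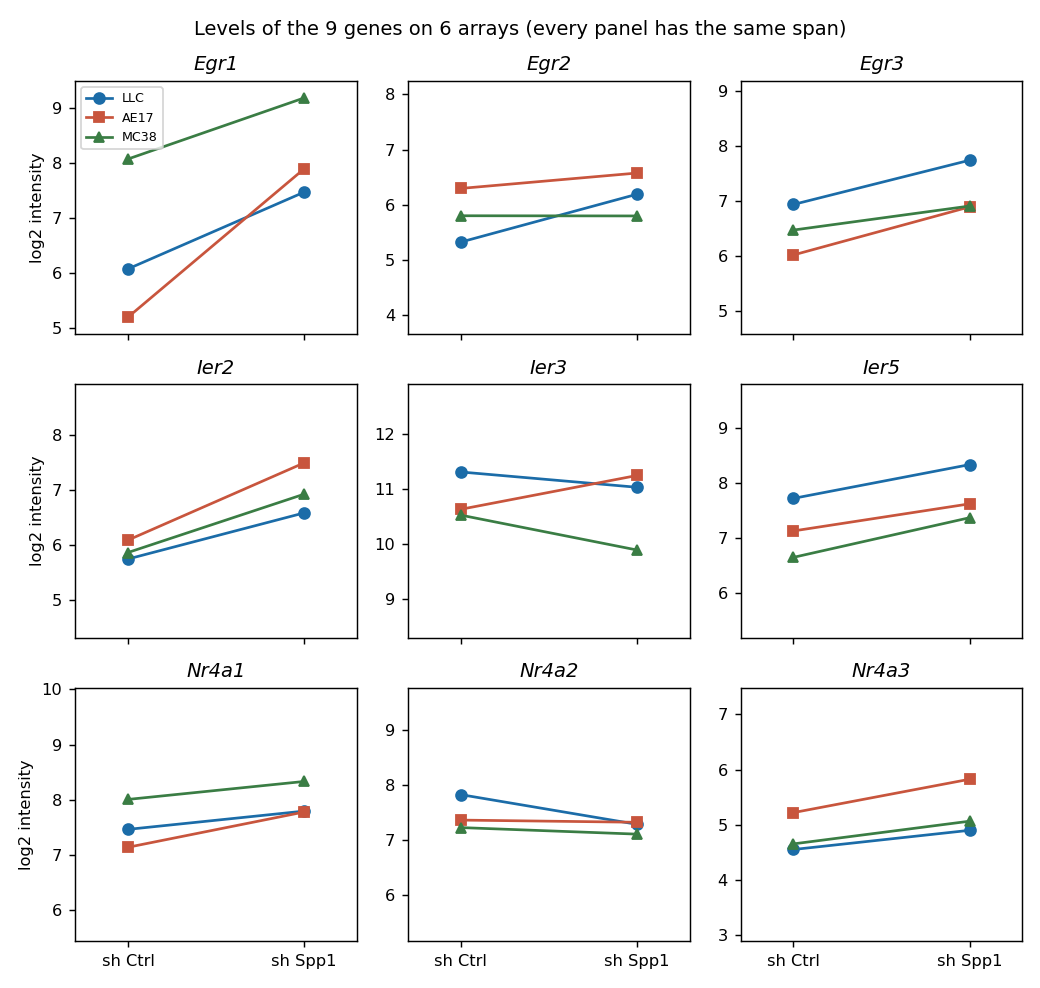
Log2 intensity (vertical axis, same span in every panel) of the 9 genes on the sh Ctrl and sh Spp1 array of each line, 1 point per array and a line joining the 2 arrays of a cell line. Egr1, Egr3, Ier2 and Ier5 slope up in all 3 lines, as they do under the other scalings, and Ier3 slopes up in AE17 but down in LLC and MC38, although in LLC it slopes up when arrays are centred on their medians.

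Egr1 (Entrez gene 13653), the best-known serum-induced member of its family, had log2 intensities of 6.07 and 7.46 for LLC, 5.19 and 7.89 for AE17, and 8.06 and 9.17 for MC38. The deposited intensities behind these were 102 and 182, 32.5 and 181, and 281 and 734. Each sh Spp1 array was above the sh Ctrl array of its own line, but the groups overlapped, because the MC38 sh Ctrl array was above the sh Spp1 arrays of LLC and AE17. The ratios came to 2.63-fold for LLC, 6.48-fold for AE17 and 2.16-fold for MC38. The mean log2 ratio was 1.73 ± 0.85 (SD, n = 3 lines). It was 1.25 without AE17, where the sh Ctrl array held the lowest Egr1 level of all 6. Of the genes tested, 99.5% had a lower ratio than Egr1 for LLC, 98.3% for AE17 and 99.5% for MC38.

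Egr3 (Entrez gene 13655), a relative that Egr1-inducing stimuli also switch on, had 6.95 and 7.75 for LLC, 6.03 and 6.90 for AE17, and 6.48 and 6.92 for MC38. Its log2 ratios were 0.80, 0.87 and 0.44, with a mean of 0.70 ± 0.23 (SD, n = 3 lines). The LLC ratio was 0.38 in the values as deposited, or 0.84 relative to all genes there. The groups overlapped, since the LLC sh Ctrl array was above the sh Spp1 arrays of the other lines.

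Egr2 (Entrez gene 13654), known for its part in the myelination programme of Schwann cells, had 5.32 and 6.19 for LLC, 6.29 and 6.57 for AE17, and 5.80 and 5.79 for MC38. Its log2 ratio was 0.87 in LLC and 0.28 in AE17. In MC38 the arrays differed by -0.0034 log2 units (sh Spp1 minus sh Ctrl), or by 0.051 when arrays were centred on their medians. In the values as deposited the LLC ratio was 0.12, or 0.58 relative to all genes. Egr2 was the only member whose RefSeq promoter windows held a CArG box, among the 6 members with a window in the table. Egr1, Egr3 and Ier2 had no window there, so their promoters were not searched and nothing is said of them. The stretch is shown because it sets the SRF motif beside a half-site of the cyclic AMP response element, CGTCA, 7 bases further on. It lies at chr10:67537793-67537822 (GRCm38.p6, plus strand), and capitals mark both motifs.
Egr2: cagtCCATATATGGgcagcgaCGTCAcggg
A CArG box was found in 1.47% of the 32851 windows of 250 bases upstream of a RefSeq gene start. It was in 4 of the 5 Egr2 windows, 3 of which overlap and share it. Windows of Ier3 and Ier5 held neither motif, on either strand.

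Ier2 (Entrez gene 15936), which encodes a small nuclear protein induced by growth factors, had 5.75 and 6.59 for LLC, 6.10 and 7.50 for AE17, and 5.87 and 6.93 for MC38. It was the only member whose groups did not overlap: the lowest sh Spp1 array, that of LLC, was above the highest sh Ctrl array, that of AE17. Of all tested genes, 5.74% were higher on the sh Spp1 arrays without overlap and 4.79% were lower, and nothing is read from the count of 1 member in 9, since the ratios chose the members. The ratios were 1.79-fold, 2.64-fold and 2.08-fold in LLC, AE17 and MC38. Their mean was 1.10 ± 0.28 on the log2 scale (SD, n = 3 lines). In the values as deposited the LLC ratio was 0.14 on that scale, or 0.60 relative to all genes, with intensities of 83.1 and 91.6.

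Ier5 (Entrez gene 15939), a nuclear protein of the same family as Ier2 that takes part in the heat shock response, had 7.72 and 8.34 for LLC, 7.13 and 7.63 for AE17, and 6.65 and 7.37 for MC38. Its log2 ratios were 0.61, 0.49 and 0.72, with a mean of 0.61 ± 0.11 (SD, n = 3 lines). In MC38 96.9% of tested genes had a lower ratio, against 78.3% in AE17, where ratios of all genes were wider.

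Ier3 (Entrez gene 15937), a stress-responsive modulator of cell survival also known as IEX-1, had 11.31 and 11.04 for LLC, 10.63 and 11.25 for AE17, and 10.53 and 9.90 for MC38. The ratio was above 0 in AE17, at 0.61, and below it in LLC and MC38, at -0.28 and -0.63, although the LLC ratio turned to 0.79 after median centring, where that of MC38 was -0.042. Its mean of -0.099 ± 0.64 (SD, n = 3 lines) was smaller than its spread.

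Nr4a1 (Entrez gene 15370), also called Nur77, had 7.46 and 7.79 for LLC, 7.13 and 7.77 for AE17, and 8.0 and 8.33 for MC38. The log2 ratios were 0.33, 0.64 and 0.33, with a mean of 0.43 ± 0.18 (SD, n = 3 lines), and the LLC ratio was -0.013 in the values as deposited, or 0.45 relative to all genes. Between 79.4% and 82.8% of tested genes had a lower ratio in the same line.

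Nr4a3 (Entrez gene 18124), also called Nor1, was dim: it had 4.55 and 4.89 for LLC, 5.22 and 5.82 for AE17, and 4.65 and 5.06 for MC38. All 6 values were above the floor of 4.49, the LLC sh Ctrl array by little. Its log2 ratios were 0.35, 0.61 and 0.41, with a mean of 0.46 ± 0.13 (SD, n = 3 lines), and the LLC ratio was -0.48 in the values as deposited, or -0.015 relative to all genes, with intensities of 36.7 and 26.3.

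Nr4a2 (Entrez gene 18227), also called Nurr1 and required for dopamine neurons of the midbrain, had 7.82 and 7.28 for LLC, 7.36 and 7.32 for AE17, and 7.22 and 7.10 for MC38. The LLC ratio of -0.54 was lower than that of all but 8.56% of tested genes. It was -0.90 as deposited and -0.11 after median centring, which is -0.43 relative to all genes under both. In AE17 and MC38 the ratios were -0.040 and -0.12. They were 0.45 and 0.18 after median centring and 0.0033 and 0.0027 as deposited, which is 0.23 and -0.078 relative to all genes under both. Relative to all genes, Nr4a2 was thus lower in MC38 under these scalings too, while in AE17 it was not. The mean was -0.23 ± 0.27 (SD, n = 3 lines).

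**Figure D2:**
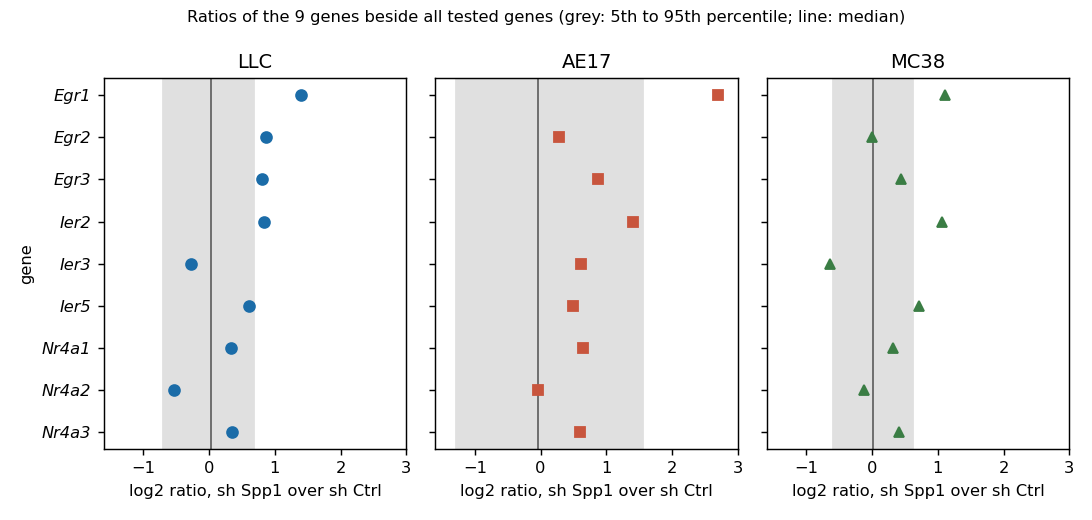
Log2 ratio of sh Spp1 over sh Ctrl (horizontal axis) of each of the 9 genes in LLC, AE17 and MC38, 1 array against 1 array. The grey band holds all tested genes from the 5th to the 95th percentile and the thin line is their median; Egr1 lies outside the band in every line, and the Nr4a genes lie inside it in every line.

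The upstream sequences of the Nr4a genes are shown because the CREB motif that Egr2 carries beside its CArG box recurs in all of them, whichever way the transcript differed. Each is the 250 bases before the RefSeq gene start in GRCm38.p6, 5′ to 3′ on the gene's strand. Nr4a1 lies at chr15:101266596-101266845 on the plus strand, Nr4a2 at chr2:57124004-57124253 on the minus strand and Nr4a3 at chr4:48045055-48045304 on the plus strand. Capitals mark the half-site CGTCA, or TGACG where it lies on the other strand, and in Nr4a1 also 1 Egr site.
Nr4a1: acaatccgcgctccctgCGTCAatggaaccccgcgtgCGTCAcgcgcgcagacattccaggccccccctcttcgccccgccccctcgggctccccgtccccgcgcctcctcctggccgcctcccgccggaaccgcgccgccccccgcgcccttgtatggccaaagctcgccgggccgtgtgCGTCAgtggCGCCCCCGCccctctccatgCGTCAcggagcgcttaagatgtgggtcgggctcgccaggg
Nr4a2: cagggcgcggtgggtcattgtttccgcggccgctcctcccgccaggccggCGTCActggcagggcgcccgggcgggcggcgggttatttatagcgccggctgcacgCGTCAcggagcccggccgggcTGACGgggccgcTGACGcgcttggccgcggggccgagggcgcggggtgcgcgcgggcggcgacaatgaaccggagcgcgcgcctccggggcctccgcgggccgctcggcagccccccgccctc
Nr4a3: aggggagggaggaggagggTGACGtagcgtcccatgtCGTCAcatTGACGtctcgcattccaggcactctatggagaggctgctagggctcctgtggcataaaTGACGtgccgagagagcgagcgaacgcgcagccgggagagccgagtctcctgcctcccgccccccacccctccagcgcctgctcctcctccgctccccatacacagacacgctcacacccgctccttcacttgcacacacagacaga
Each of the 3 windows held 4 half-sites. At least 1 was found in 17.8% of the 32851 windows and at least 4 in 0.137%, or 45 windows. In Nr4a1 the half-sites began 40, 69, 213 and 233 bases upstream of the start, in Nr4a2 at 111, 123, 144 and 200, and in Nr4a3 at 147, 205, 213 and 231. The Egr site searched was GCGTGGGCG or GCGGGGGCG on both strands. It was found in 3.06% of windows and, among members, 1 time, in that of Nr4a1, on the other strand. The Nr4a response element AAAGGTCA was found in no member's window and in 1.34% of all. A match is a description of these letters and does not show that a factor bound there.

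Over the lines, the medians of the 6 Egr and Ier genes were 0.82 for LLC, 0.74 for AE17 and 0.58 for MC38, and those of the 3 Nr4a genes were 0.33, 0.61 and 0.33. The medians of all tested genes were 0.025, -0.039 and 0.018. Of the 9 members, 6 were higher in every line and 1 was lower, where 16.8% of all tested genes were higher in every line and 15.5% lower. With the chosen genes known to lean upward, nothing is read from that comparison. By at least 1 log2 unit, Egr1 was higher in LLC, where 1.7% of genes were. Egr1 and Ier2 were in AE17, where 9.93% were, and in MC38, where 0.863% were. No member was lower by that much in any line, against 1.75%, 8.63% and 1.64% of genes.

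Scaling changed the all-gene medians and the members' ratios, by amounts that differed between members. The spread of the deposited log2 intensities, upper decile minus lower decile, was wider on each sh Spp1 array than on its sh Ctrl partner. It was 5.989 and 6.733 for LLC (sh Ctrl first), 6.003 and 6.557 for AE17, and 6.049 and 6.574 for MC38. Centring on medians leaves this spread as it was. Its part in the ratios relative to all genes, of the members and of the lists below, was not tested. The values as deposited put the median of all genes at -0.46 for LLC, -0.23 for AE17 and 0.081 for MC38, and centring each array put it at 0.33, 0.22 and 0.26. Relative to these, the Egr and Ier median was 0.72, 1.0 and 0.57 under both. After quantile normalization it was 0.80, 0.78 and 0.56, so that of AE17 moved most. For the Nr4a genes it was -0.015, 0.41 and 0.11, against 0.31, 0.65 and 0.31. The Nr4a median in LLC therefore turned sign with the scaling, while that of the Egr and Ier genes did not in any line.

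**Figure D3:**
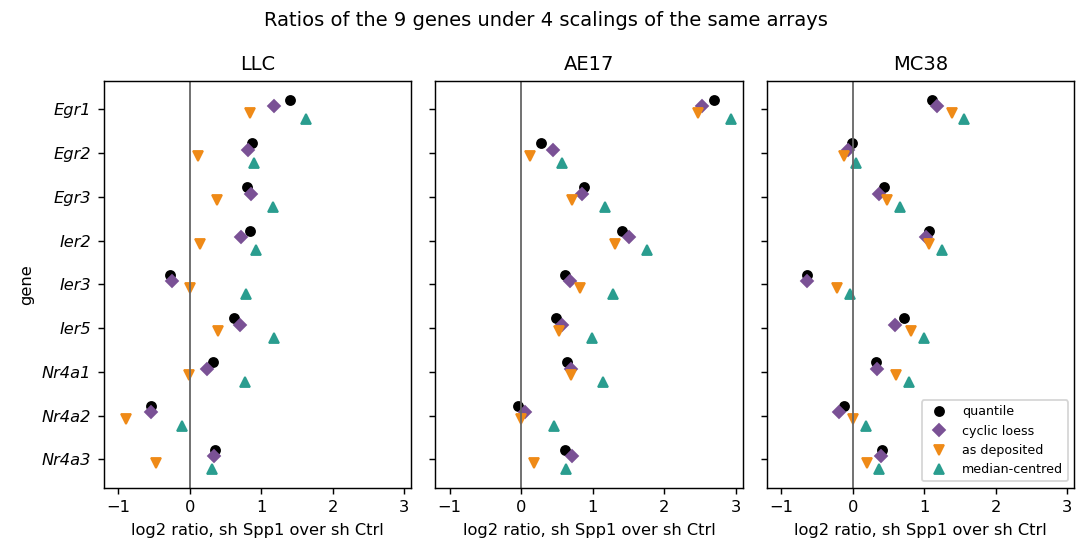
Log2 ratio of sh Spp1 over sh Ctrl (horizontal axis) of the 9 genes in each line, with 1 marker for each of 4 scalings of the same arrays. Markers of Egr1, Egr3, Ier2 and Ier5 all lie right of 0; in LLC those of Nr4a1 and Nr4a3 lie on both sides, as do those of Nr4a2 in AE17 and MC38.

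For sh Spp1 against sh Ctrl, limma with line as a term called 0 of 16797 genes (0%) at an adjusted p under 0.05, and 1017 had an unadjusted p under 0.05. The smallest adjusted p in limma was 0.723. With 3 pairs, the smallest p that exact sign flips allow is 0.25.

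Levels between the lines were compared in the same model, with the 2 arrays of a line averaged. The members were chosen with earlier results of these data known, so the p-values below are not independent of that choice. Egr1 and Nr4a1 were highest in MC38, Egr2, Ier2 and Nr4a3 in AE17, and Egr3, Ier3, Ier5 and Nr4a2 in LLC. In the values as deposited Egr2 was highest in LLC instead, with AE17 minus LLC at -0.012, and Ier2 in MC38, with MC38 minus AE17 at 0.22. None of these differences passed. In limma 0 genes (0%) reached an adjusted p under 0.05 for AE17 against LLC, MC38 against LLC or MC38 against AE17, and 2153, 1936 and 2209 had an unadjusted p under 0.05. The error holds the lines' unequal responses to the hairpin as well as culture and array variation.

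For Egr1 the mean of the 2 arrays was 8.62 in MC38, 6.76 in LLC and 6.54 in AE17. Both MC38 arrays were above all other arrays, and the arrays of LLC and AE17 overlapped. The log2 difference of MC38 from LLC was 1.85 ± 0.44 (SE), with a limma adjusted p of 0.258, and from AE17 2.08 ± 0.44, with 0.209. Without AE17 the difference from LLC passed, with a limma adjusted p of 0.00845 (0.00845 to 0.593 over the alternatives), in a fit that called 6.14% of genes. In the values as deposited that from AE17 passed in limma, with 0.0267 (0.0267 to 0.482 over the alternatives), in a fit that called 1.71% of genes.

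For Ier5 the order was LLC at 8.03, AE17 at 7.38 and MC38 at 7.01, and the 2 lower lines overlapped. MC38 was lower than LLC by a log2 difference of -1.02 ± 0.20 (SE), with a limma adjusted p of 0.209. Without AE17 that limma adjusted p was 0.0421 (0.0421 to 0.401 over the alternatives), in the fit that called 6.14% of genes. Egr3 had 7.35 in LLC, 6.70 in MC38 and 6.46 in AE17, with the latter 2 overlapping, and its difference of AE17 from LLC was -0.88 ± 0.23 (SE; limma adjusted p = 0.308). Ier3 had 11.17 in LLC and 10.94 in AE17, which overlapped, and 10.21 in MC38, below both.

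Nr4a1 had 8.17 in MC38, 7.62 in LLC and 7.45 in AE17, again with LLC and AE17 overlapping. Nr4a3 was higher in AE17, at 5.52, than in MC38 and LLC, at 4.85 and 4.72, which overlapped, and AE17 differed from LLC by 0.80 ± 0.21 (SE; limma adjusted p = 0.308), or by 0.18 in the values as deposited. Egr2 likewise had 6.43 in AE17 and overlapping levels of 5.79 and 5.75 in MC38 and LLC. Ier2 overlapped between neighbours throughout, at 6.80 in AE17, 6.40 in MC38 and 6.17 in LLC. For Nr4a2 the means of 7.55 for LLC, 7.34 for AE17 and 7.16 for MC38 spanned the narrowest range of the 9 genes, with MC38 below both other lines, whose arrays overlapped. At an unadjusted p under 0.05 in limma, 4 members differed between AE17 and LLC, 4 between MC38 and LLC and 3 between MC38 and AE17, where 12.8%, 11.5% and 13.2% of all genes did.

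Egr1 and Nr4a1 had like profiles over the arrays. Their levels correlated at Pearson r = 0.984 and Spearman rho = 0.943 over the 6 arrays, and at 0.954 and 0.80 over 4 arrays, without the sh Ctrl arrays of LLC and AE17. By likeness to Egr1, Nr4a1 ranked 7 of 14643 named genes. The genes most like Egr1 were Tirap, Shh, Smug1, Bms1 and Tecpr2, at r = 0.993 to 0.987. Those most like Nr4a1 were Fosl2, a Fos-related transcription factor, Tirap, Egr1, Shh and Cr1l, at 0.991 to 0.980. Fosl2 had log2 ratios of 0.31, 0.62 and 0.17 in LLC, AE17 and MC38. The arrays share cell lines and hairpin, so such correlations over 6 points describe a pattern and are not independent evidence of a relation.

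**Figure D4:**
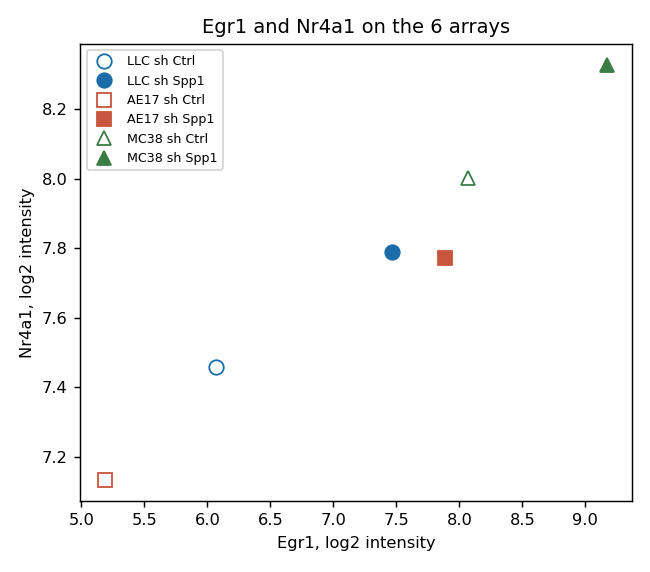
Log2 intensity of Egr1 (horizontal axis) against that of Nr4a1 (vertical axis, narrower range) on the 6 arrays, open markers for sh Ctrl and filled for sh Spp1. The AE17 sh Ctrl array is lowest and the MC38 sh Spp1 array highest for both genes, with r = 0.984.

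The other pairs varied less closely. Ier2 and Nr4a3 correlated at r = 0.845, Egr2 and Nr4a3 at 0.859 and Egr3 and Ier5 at 0.848 over the 6 arrays. Egr1 and Egr2 had 0.014, Egr1 and Ier5 -0.043 and Egr1 and Nr4a2 -0.67. Genes most like Ier2 were Ubqln1, Mroh1, Mymk, Galnt14 and Marchf8, at 0.990 to 0.984, and none of them is a member.

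Other immediate early genes were counted from a list not picked for how its genes moved but written with earlier results of these data known. Of 32 tested genes, 9 were higher in every line (28.1%, against 16.8% of all genes) and 0 were lower in every line (against 15.5%). Their medians were 0.42 for LLC, 0.76 for AE17 and 0.24 for MC38, or 0.71, 1.05 and 0.25 relative to all genes in the values as deposited. The highest mean was that of the growth arrest gene Btg2, with log2 ratios of 1.68, 2.62 and 0.35. The lowest was that of the prostaglandin synthase Ptgs2, with 0.91, -1.30 and -0.38. Fos, which serum induces together with Egr1, had -0.086, 1.54 and 0.46, and Fosb had 0.74, 0.74 and 1.10. In LLC the Fos levels were 4.78 and 4.69, little above the floor of 4.49.

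Regulators upstream of the Egr genes were counted in the same way. Of 14 tested genes for SRF, its cofactors and growth factor-activated kinases, 4 were higher in every line (28.6%, against 16.8% of all genes) and 1 was lower (7.14%, against 15.5%). The medians were -0.016, 0.30 and 0.25 in LLC, AE17 and MC38, or 0.40, 0.52 and 0.43 relative to all genes in the values as deposited. Srf itself had 0.28, 0.52 and 0.39, and the ternary complex factor Elk1 had 0.15, 0.34 and 0.22. The kinase gene Map2k2, which encodes MEK2, had the highest mean, at 0.63 ± 0.29 (SD, n = 3 lines), and Rps6ka3, which encodes the ribosomal S6 kinase RSK2, the lowest, at -0.76 ± 0.82, with -1.70 in AE17.

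The CREB pathway, upstream of the Nr4a genes, had medians of 0.079, 0.36 and 0.17, or 0.52, 0.73 and 0.44 relative to all genes in the values as deposited. A list of mRNA decay factors, described below, had 0.49, 0.61 and 0.33 there, so such values are not particular to this pathway. Higher in every line were 5 of 14 genes (35.7%, against 16.8% of all), and 0 were lower (against 15.5%). The coactivator Crebbp had the highest mean, from -0.15, 1.49 and 0.45, and Creb1 itself the lowest, from 0.12, -0.91 and 0.073. Sik1, a kinase gene that CREB induces, had 0.074, 0.18 and 0.11. Among 7 partners and relatives of the Nr4a receptors, Nr2f2 had the highest mean, at 0.70 ± 0.40 (SD, n = 3 lines), and the glucocorticoid receptor Nr3c1 the lowest, at -0.13 ± 0.16. The retinoid receptor Rxra, a dimer partner of Nr4a1 and Nr4a2, had -0.084, 0.25 and 0.54.

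Downstream of the Egr factors, the corepressor genes Nab1 and Nab2, which limit Egr activity, had log2 ratios of 0.34, 2.71 and -0.026, and of -0.076, 0.80 and 0.70. Egr4, the remaining Egr gene, had -0.054, 0.63 and 0.22, and Wt1, which encodes a related zinc finger protein, had the lowest mean of that list, at 0.061. Of 11 tested genes known as Egr1 targets, Nab2 among them, 3 were higher in every line (27.3%, against 16.8% of all) and 0 lower (against 15.5%). Their medians were 0.30, 0.58 and 0.020, or 0.61, 0.92 and 0.30 relative to all genes in the values as deposited. The growth factor Pdgfb had the highest mean, from -0.056, 2.23 and 1.34, and the adhesion molecule Icam1 the lowest, from 0.083, -1.68 and -0.11. In LLC, where the Egr1 ratio was 1.39, that of Pdgfb was near 0, at dim levels of 5.40 and 5.34. The targets' ratios in LLC ran from -0.076 for Nab2 to 0.70 for F3. Ier5l, a relative of Ier5, had 0.15, -0.33 and 0.51.

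**Figure D5:**
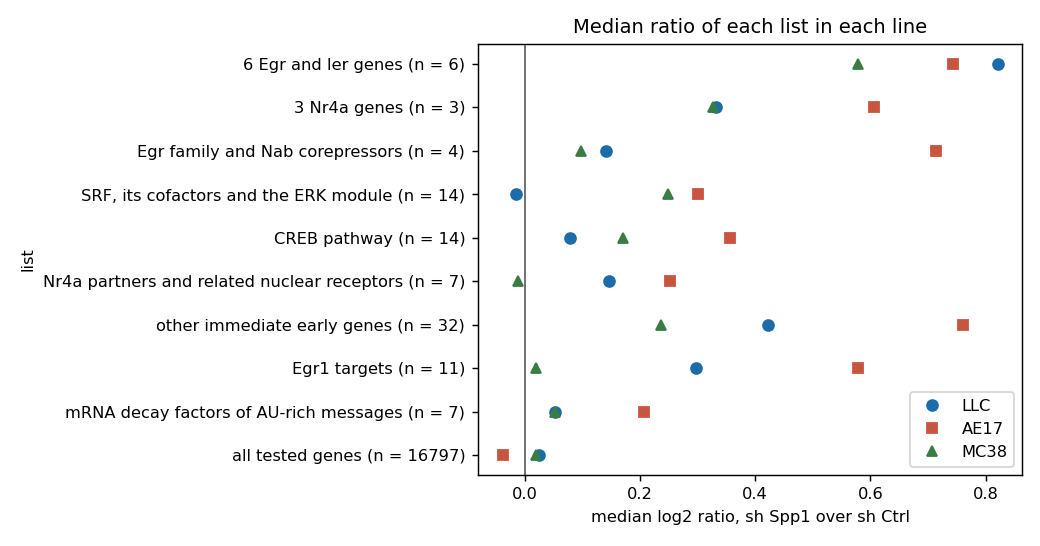
Median log2 ratio of sh Spp1 over sh Ctrl (horizontal axis) of each list in LLC, AE17 and MC38, with the number of tested genes. The 6 Egr and Ier genes lie at 0.58 to 0.82, the other immediate early genes at 0.24 to 0.76 and all tested genes at -0.039 to 0.025. In the values as deposited, the LLC median falls to -0.48 for the Nr4a genes, or -0.015 relative to all genes. There it is 0.26 for the Egr and Ier genes and -0.46 for all genes.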

How the data were processed

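The authors' deposited table gives linear intensities, 1 column per array. RMA is named per the submitters' processing notes and GeneSpring GX 12.5 in the design text; the genome build is not given in the sources used here, and the array medians show that the deposited intensities differ in scale. Values were log2 transformed and quantile normalized with limma 3.58.1 in R 4.3.3. Dim probe sets (mean under the 30th percentile) and those without exactly 1 symbol were dropped, and the brightest stood for its gene. limma used lmFit and eBayes with the cell line and the shRNA as terms, with Benjamini-Hochberg adjustment at 0.05. With both terms fitted, the p-values rest on the lines' unequal responses to the hairpin together with culture and array variation. No replicate cultures were labelled that could tell these apart. The lines pair the arrays by label, and deviations from the group means correlated at 0.52 for LLC, 0.16 for AE17 and 0.58 for MC38.

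The members and lists were chosen with earlier results of these data known. Named were all members, the highest and lowest mean of each list, genes needed for a pathway's role and the 5 genes most alike to Egr1, Ier2 and Nr4a1, without clone names and predicted genes. Of the list symbols 4 were updated through RefSeq synonyms. Promoter windows came from RefSeq, GRCm38.p6, for 6 of 9 members, and the fit was tested on simulated data. Figures were drawn with matplotlib 3.10.9.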

Additional observations from a re-analysis of the deposited data

Results flagged for a closer look

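Ier3 had opposite ratios in AE17 and MC38, at 0.61 and -0.63 on the log2 scale, a difference of 1.25 between the lines. The MC38 ratio was -0.22 as deposited and -0.042 after median centring. It was picked out because the ratios had opposite signs and lay at least 1 log2 unit apart, as for no other member. Each ratio is 1 array against 1 array, so the difference was not tested.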

How the results depend on the processing

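For sh Spp1 against sh Ctrl limma called 0 genes under every alternative run, with no replicate block too, so the pairing changed no call there. Between lines, where 0 genes were called, the alternatives gave these counts for AE17 against LLC, MC38 against LLC and MC38 against AE17: 103, 225 and 287 as deposited, 1, 50 and 1 with a robust and trended variance prior, and 9, 89 and 100 without the shRNA term. With no filter MC38 against LLC gave 44, and with the floor at the 50th percentile it gave 42 and MC38 against AE17 27. Leaving out 1 line, MC38 against LLC gave 1032 without AE17, and the others 0. Contrasts of a line that was left out could not be computed. The cause of these differences was not tested. The mean over lines of the Egr and Ier median, 0.71, became 0.56 as deposited and 1.03 with arrays centred, and that of the Nr4a median, 0.42, became -0.036 as deposited and 0.10 at the higher floor, which Nr4a3 did not reach. Contrasts that changed sign as deposited, none past the threshold in either fit, were AE17 minus LLC for Egr2 (-0.012) and Ier2 (-0.020), MC38 minus LLC for Egr2 (-0.032), and MC38 minus AE17 for Ier2 (0.22), Ier5 (0.32) and Nr4a2 (0.49). Nr4a3 lay nearest the floor of the members.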

Other observations

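Immediate early messages are cleared through AU-rich elements, and genes for proteins that bind such elements or act in their decay were listed for that reason. Of 7 tested, 1 was higher in every line and 1 lower, against 16.8% and 15.5% of all genes. The LLC, AE17 and MC38 medians were 0.052, 0.21 and 0.053, or 0.49, 0.61 and 0.33 relative to all genes in the values as deposited. Zfp36, which encodes the decay factor tristetraprolin and is itself an immediate early gene, had the highest mean, from 1.20, 2.85 and -0.025. Tia1, which encodes a translational repressor that binds U-rich RNA, had the lowest, from -0.42, -0.41 and -0.21, and Elavl1, which encodes the stabilising protein HuR, had 0.13, -0.10 and 0.23.

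Other marker lists gave these medians in LLC, AE17 and MC38: 0.41, 0.61 and 0.013 for mesothelium, 0.018, -0.36 and 0.086 for lung epithelium, 0.31, -0.056 and 0.054 for intestinal epithelium, 0.099, -0.40 and -0.20 for leukocytes, and -0.18, -0.38 and 0.12 for endothelium. Relative to all genes in the values as deposited, those of mesothelium were 0.076, 0.42 and -0.030. Lung epithelium had -0.20, -0.44 and -0.20 there, and intestinal epithelium -0.027, -0.26 and -0.20. Leukocytes had -0.27, -0.72 and -0.50, and endothelium -0.53, -0.61 and -0.17.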
